A study of Mus musculus with 10 samples.

Results

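The genes of the G1/S transition and of DNA replication were followed in leukemia initiating cells (LIC), the cells of a B cell precursor leukemia that can start the disease anew. The set held 34 genes chosen by name, Mcm2 to Mcm7, Mcm10, Pcna, Rrm1, Rrm2, Ccne1, Ccne2, Cdc6, Cdt1, E2f1, E2f2, Tyms, Gins1, Gins2, Slbp, Ung, Tk1, Uhrf1, Cdc45, Fen1, Lig1, Pola1, Pold1, Pole, Prim1, Rfc3, Rfc4, Rpa2 and Orc1. All 34 were found in the annotation, all passed the filter on low counts, and they were 34 of the 13729 genes tested. Per the labels, spleens of mouse pups aged 13 days were the source, and the leukemic cells were isolated by cell sorting, 7 days after treatment. Of the pups, 5 had received 20 µg of Poly(A:U), a man-made RNA duplex that Toll-like receptor 3 senses, and 5 had received 50 µl of PBS. Both groups carried the RFP/RET transgene (Eμ-Ret), a fused RET kinase named for the Eμ enhancer of the immunoglobulin heavy chain gene, which is active in the B lineage. No group lacked the transgene. The study asked what Poly(A:U) does to these leukemic cells.

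A cell that commits to division passes from G1 into S phase when cyclin E and its kinase inactivate the RB family, which frees E2F factors to switch on the genes of DNA synthesis. In G1 the origin recognition complex, CDC6 and CDT1 load the MCM helicase onto origins, a step called licensing. At the start of S phase CDC45, the GINS complex and MCM10 help to switch the helicase on, primase and the replicative polymerases copy the strands, and the PCNA clamp, set in place by the RFC loader, holds the polymerases to the DNA. In the B lineage, precursors divide in bursts when the pre-B cell receptor first signals and leave the cycle to rearrange their light chain genes, so the level of these transcripts is a common readout of how much of a B cell precursor population is in cycle.

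The 10 libraries held between 17859006 and 22587871 estimated reads. Values per gene are given as CPM, the gene's estimated reads scaled to a common library total. The names of the libraries fell into sets. PBS 1 to PBS 3 share a name start that no other library has. PBS 4 shares a name part with Poly(A:U) 5, PBS 5 with Poly(A:U) 1, and Poly(A:U) 3 with Poly(A:U) 4. The labels do not say what these name parts mark. PBS 4 stood apart, with 16032 genes of at least 10 reads against 13423 to 14723 in the others, and with 53.9 CPM of the T cell gene Cd3e, named after its values were seen, against at most 2.97 CPM elsewhere. PBS 1 to PBS 3 had 42.8 to 51.6 CPM of the Y-linked gene Ddx3y and at most 0.336 CPM of Xist, against at most 4.67 CPM of Ddx3y and at least 112 CPM of Xist in the other 7 libraries, 2 genes chosen after their values were seen. The labels used here give no sex for the pups. All 15 B cell precursor markers were tested and none was called, but neither was any of the 13729 tested genes. Ighm, Cd79a and Pax5 were at 759 CPM or more in every library. The 15 markers summed to 12457 CPM in PBS 4 and to 14345 to 19002 CPM in the other libraries.

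Many genes of this set are known E2F targets, and the region just before their start was read for the E2F site. RefSeq start regions of GRCm38.p6, from 250 bases before the start to 50 bases after it, were on hand for 29 of the 34 genes, in 35 windows. The site was searched on both strands as TTTCCCGC, TTTCGCGC, TTTGCCGC or TTTGGCGC. It was found in 13 of the 35 windows of the set (37.1%) and in 28.2% of 71 windows on hand for 57 other replication genes. The share was 3.85% for 26 windows of 25 G2/M genes, 4.07% for all tested genes with a window and 2.26% for all 32851 windows. The regions of Cdc6, Mcm6, Rfc3 and Slbp are shown as examples. Cdc6, Mcm6 and Rfc3 had the smallest unadjusted p of their roles in edgeR's comparison of the groups, and each holds a match. Slbp was the only gene of the set whose groups did not overlap, and it holds no match. Slbp, Lig1, Ccne1, Mcm10, Prim1 and Tk1 also had the smallest unadjusted p of their roles. Of these only Lig1 holds a match. Capitals mark the E2F matches, each region reads 5′ to 3′ along its gene, and where capitals run past 8 letters, matches on opposite strands overlap.
Cdc6 (chr11:98907901-98908200, plus strand): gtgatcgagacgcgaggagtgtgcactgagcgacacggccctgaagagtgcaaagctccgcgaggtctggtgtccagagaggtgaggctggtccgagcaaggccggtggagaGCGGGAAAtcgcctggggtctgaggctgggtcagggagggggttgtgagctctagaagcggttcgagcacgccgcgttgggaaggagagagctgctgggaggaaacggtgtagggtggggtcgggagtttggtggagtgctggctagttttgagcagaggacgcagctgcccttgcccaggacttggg
Mcm6 (chr1:128359656-128359955, minus strand): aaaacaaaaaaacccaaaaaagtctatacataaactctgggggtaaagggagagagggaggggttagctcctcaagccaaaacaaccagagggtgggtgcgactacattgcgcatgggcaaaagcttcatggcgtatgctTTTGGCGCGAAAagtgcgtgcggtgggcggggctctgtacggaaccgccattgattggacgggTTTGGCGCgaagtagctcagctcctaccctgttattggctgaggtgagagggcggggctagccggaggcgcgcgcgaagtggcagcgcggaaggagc
Rfc3 (chr5:151651159-151651458, minus strand): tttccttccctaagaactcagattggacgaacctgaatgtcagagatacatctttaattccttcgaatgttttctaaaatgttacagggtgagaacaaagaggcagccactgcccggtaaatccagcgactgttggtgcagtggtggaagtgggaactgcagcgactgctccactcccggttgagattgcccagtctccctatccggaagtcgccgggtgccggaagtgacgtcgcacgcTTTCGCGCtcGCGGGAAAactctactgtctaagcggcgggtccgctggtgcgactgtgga
Slbp (chr5:33652525-33652824, minus strand): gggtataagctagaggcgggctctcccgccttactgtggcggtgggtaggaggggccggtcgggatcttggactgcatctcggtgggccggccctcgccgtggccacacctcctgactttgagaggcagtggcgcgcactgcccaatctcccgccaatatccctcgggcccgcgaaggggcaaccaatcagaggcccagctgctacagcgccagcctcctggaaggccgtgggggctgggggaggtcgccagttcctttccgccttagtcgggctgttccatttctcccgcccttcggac
In Mcm6, matches began 110, 106 and 47 bases before the start, and in Rfc3 they began 10 bases before it and at its first base. The match of Cdc6 began 138 bases before the start. These distances are from the RefSeq start. The gene annotation used for the counts begins Cdc6 at 98907801 and Rfc3 at 151651242, so by it the matches of both lie inside the gene. The pentamer CCAAT stood in 60.0% of the windows of the set and in 80.8% of those of the G2/M genes, and TTTGAA, the core of the cell cycle homology element of many mitotic genes, in 11.4% of the windows of the set and 76.9% of those of the G2/M genes. For all tested genes the shares were 38.3% for CCAAT and 12.3% for TTTGAA. A match is a run of letters and not a measured site of binding.

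No gene of the set passed edgeR's quasi-likelihood test between Poly(A:U) and PBS, and 0 of the 34 were called at an adjusted p below 0.05 (0% of all 13729 tested genes were). At an unadjusted p below 0.05 there were 2 of the 34, Slbp and Rfc3, both higher with Poly(A:U), against 7.3% of all tested genes in either direction and 4.11% in that direction. The log2 fold change, Poly(A:U) minus PBS, was above 0 for 29 of the 34 genes, against 49.4% of all tested genes. The median of the set was 0.079, and that of all tested genes -0.0024. The direction turned when shared name parts were fitted, which left PBS 4 and PBS 5 as the only PBS libraries in the contrast. With the name start shared by PBS 1 to PBS 3 as a covariate, only 8 of the 34 genes were above 0 and their median was -0.141, and with all shared name parts as terms 2 of 34 were, with a median of -0.12. The median was 0.22 without PBS 4 and 0.0369 without PBS 2. Values ran from -0.11 for Tyms to 0.56 for Ccne2, and the 5 genes below 0 were Tyms, Pold1, Fen1, Mcm5 and Rrm1. In bulk samples such as these, a change in the share of cells in cycle and a change in each transcript per cycling cell cannot be told apart.

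The errors cover the spread between pups and counting error together. The 95% interval of a log2 fold change had a median half-width of 0.29 over the 34 genes, a 1.22-fold change. The interval excluded a 2-fold difference either way for 33 of the 34 genes, Ccne2 being the exception, and a 1.5-fold difference for 29. It lay above 0 for Slbp and Rfc3 only. The fit behind these intervals held treatment as its only term and took the libraries of a group as independent. The intervals do not allow for a shift shared by libraries with the same name part, so the bounds hold for that fit only. Adjusted p-values of the 34 genes, from edgeR with Benjamini-Hochberg adjustment over all tested genes, ran from 0.677 to 0.999.

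**Figure D1:**
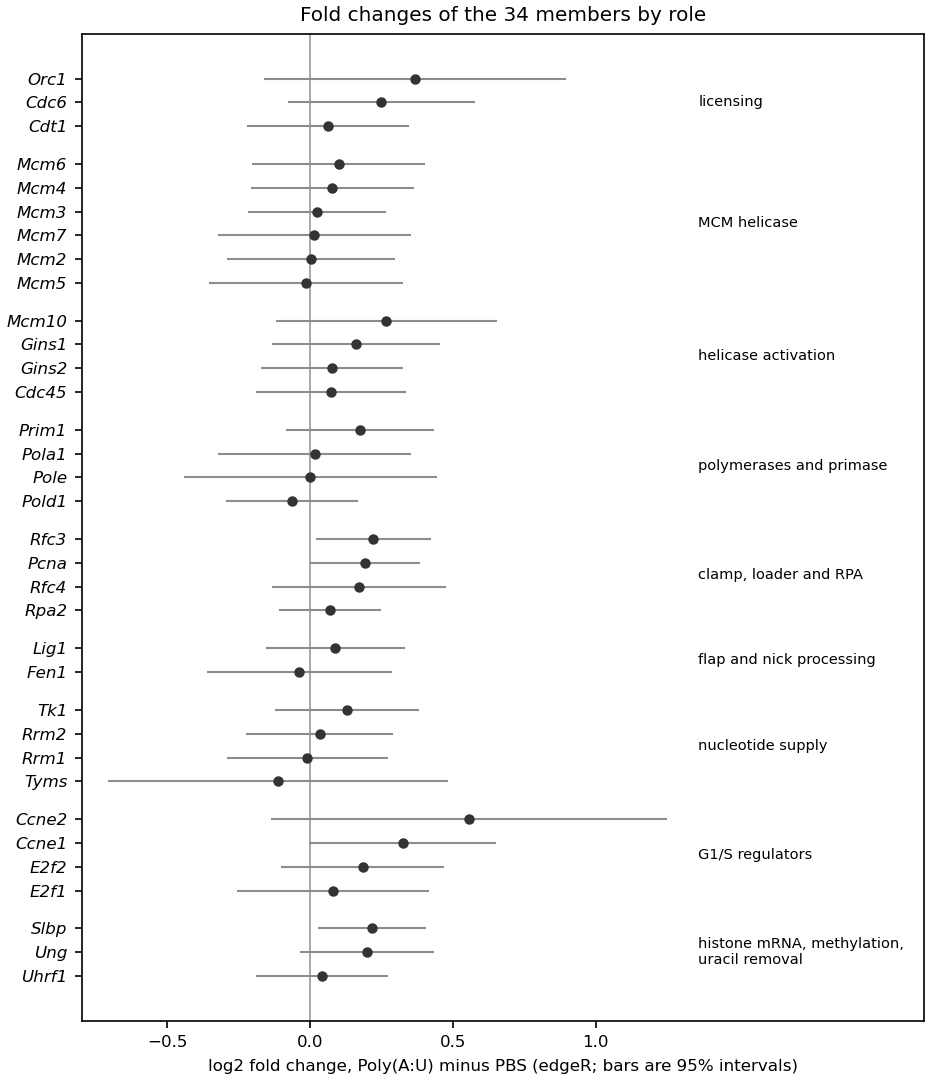
Log2 fold change of each of the 34 genes, Poly(A:U) minus PBS, from edgeR's fit of 5 against 5 libraries, grouped by role, with bars for the 95% interval. Of the 34 points 29 lie right of 0, and only the bars of Slbp and Rfc3 do not reach 0.

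A score per library was the mean log2 CPM of the 34 genes, set to 0 over the 10 libraries. It was 0.00089, 0.038, 0.065, 0.15 and 0.16 in Poly(A:U) 1 to 5, against -0.18, -0.29, -0.28, 0.36 and -0.027 in PBS 1 to 5. The Poly(A:U) libraries lay close together, and the PBS libraries lay on both sides of them, with PBS 1 to PBS 3 lowest, PBS 5 just below and PBS 4 highest of all 10. The group means were 0.083 ± 0.070 with Poly(A:U) and -0.083 ± 0.267 with PBS (SD, n = 5 each), a difference of 0.165 that is smaller than the SD of the PBS libraries. Summed over the set, the genes took 4836, 4719, 4917, 5301 and 5353 CPM in Poly(A:U) 1 to 5, against 4461, 4029, 3999, 6130 and 4761 CPM in PBS 1 to 5.

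**Figure D2:**
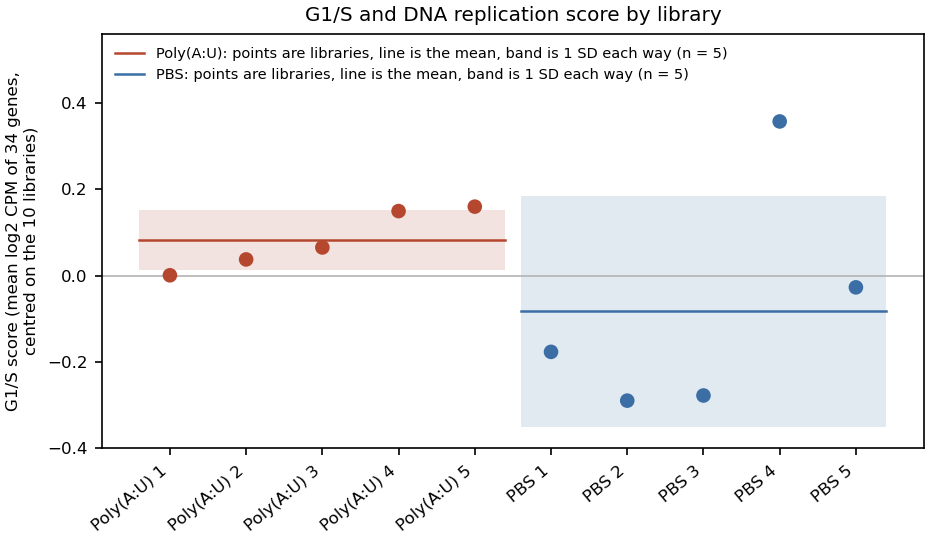
Score of the 34 genes (mean log2 CPM, centred on the 10 libraries) in each library, Poly(A:U) on the left and PBS on the right, with the group mean as a line and 1 SD each way as a band. The Poly(A:U) libraries sit between 0.00089 and 0.16, while PBS 2 is at -0.29 and PBS 4 at 0.36.

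Among the licensing genes, Cdc6, Cdt1 and Orc1 were all positive, with a median log2 fold change of 0.25. Cdc6, which brings the helicase to the origin recognition complex, had 33.8, 39.2, 42.3, 44.1 and 43.8 CPM in Poly(A:U) 1 to 5, against 31.6, 27.2, 27.0, 47.5 and 34.1 CPM in PBS 1 to 5, a log2 fold change of 0.25 ± 0.15 (SE). The first 3 PBS libraries were below every Poly(A:U) library, PBS 5 was at the low end of the Poly(A:U) range and PBS 4 was above it. Cdt1, the partner of Cdc6 in loading, had 55.3, 53.6, 52.6, 52.8 and 48.0 CPM in Poly(A:U) 1 to 5, against 45.2, 39.4, 45.4, 66.2 and 50.3 CPM in PBS 1 to 5, and gave 0.06 ± 0.13 on the log2 scale. Its order was alike, with PBS 1 to PBS 3 lowest and PBS 4 highest. Orc1, the largest subunit of the origin recognition complex, was the scarcest gene of the set and its 72 reads in PBS 2 were the fewest of any. It gave 0.37 ± 0.24 on the log2 scale, with 10.2 ± 1.37 CPM with Poly(A:U) and 7.78 ± 3.02 CPM with PBS (SD, n = 5 each).

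The 6 genes of the MCM helicase, the ring that unwinds the parental strands, lay near 0, with a median log2 fold change of 0.019 and a range of -0.015 for Mcm5 to 0.10 for Mcm6. Mcm2 had 243, 255, 256, 265 and 281 CPM in Poly(A:U) 1 to 5, against 254, 204, 217, 355 and 239.8 CPM in PBS 1 to 5, and its log2 fold change was 0.0031 ± 0.14 (SE). Poly(A:U) libraries were within 243 to 281 CPM, and PBS libraries lay both below and above that range. Mcm6 had 258, 230.0, 257, 292 and 297 CPM with Poly(A:U) and 238, 195, 213, 342 and 229.8 CPM with PBS, a log2 fold change of 0.10 ± 0.14. PBS 4 was again the highest library of all 10 and PBS 2 the lowest. Mcm3, Mcm4, Mcm5 and Mcm7 gave 0.024, 0.077, -0.015 and 0.015, and in each of them PBS 4 was the highest of the 10 libraries.

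All 4 genes of helicase activation were positive, with a median log2 fold change of 0.12. Mcm10, which helps to start the loaded helicase, had 45.3, 48.2, 47.0, 46.4 and 57.3 CPM in Poly(A:U) 1 to 5, against 34, 30.9, 31.2, 61.4 and 41.2 CPM in PBS 1 to 5, a log2 fold change of 0.27 ± 0.18 (SE). The low PBS libraries were again PBS 1 to PBS 3, which held less than every Poly(A:U) library, PBS 5 was also below them, and PBS 4 was above them. Gins1 and Gins2, subunits of the GINS complex, gave 0.16 and 0.076. Cdc45, which joins GINS and MCM in the active helicase, gave 0.072, with 41.1 to 43.5 CPM in the Poly(A:U) libraries and 33.1 to 52.3 CPM in the PBS libraries.

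The polymerase and primase genes had a median log2 fold change of 0.0085. Prim1, the catalytic subunit of primase, had 38.5, 50.2, 49.2, 55.8 and 51.5 CPM with Poly(A:U) and 44.5, 40.4, 34.5, 50.8 and 42.9 CPM with PBS, a log2 fold change of 0.17 ± 0.12 (SE). The groups overlapped in part. Poly(A:U) 1 was below 4 of the 5 PBS libraries, Poly(A:U) 4 and Poly(A:U) 5 were above every PBS library, and PBS 3 was below every Poly(A:U) library. Pola1, Pold1 and Pole, the catalytic subunits of polymerases alpha, delta and epsilon, gave 0.016, -0.062 and 0.00081. Pole stood at 109 CPM in Poly(A:U) 5 against 63.6 to 73.5 CPM in the other Poly(A:U) libraries, and at 114 CPM in PBS 4 against 55.9 to 73.8 CPM in the other PBS libraries.

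The clamp, its loader and the single-strand binding protein were all positive, 4 of 4, with a median log2 fold change of 0.18. Pcna, the sliding clamp (chromosome 2 of mm10, 132249162 to 132253314), had 493, 499, 522, 572 and 489 CPM in Poly(A:U) 1 to 5, against 419, 428, 402, 504 and 458 CPM in PBS 1 to 5, a log2 fold change of 0.19 ± 0.09 (SE) with an unadjusted p of 0.0501. PBS 4, at 504 CPM, lay inside the Poly(A:U) range and the other PBS libraries lay below it. Pcna has a processed copy, Pcna-ps2, that held 90.8 CPM in PBS 4 and 10.8 to 23 CPM in the other 9 libraries, and reads shared between them cannot be placed with certainty. Added together, a sum formed after the values were seen, Pcna and Pcna-ps2 had 508, 516, 538, 589 and 512 CPM with Poly(A:U) and 431, 439, 414, 595 and 474 CPM with PBS, so that PBS 4 then became the highest of all 10 libraries. Rfc3, a subunit of the clamp loader (chromosome 5 of mm10, 151642756 to 151651242), had 52.9, 62.6, 60.3, 60.5 and 55.8 CPM in Poly(A:U) 1 to 5, against 43.4, 49.2, 46.3, 55.4 and 51.9 CPM in PBS 1 to 5, a log2 fold change of 0.22 ± 0.09 (SE) with an unadjusted p of 0.0339. PBS 4, at 55.4 CPM, lay inside the Poly(A:U) range and the other PBS libraries lay below it. Rfc4, another loader subunit, and Rpa2, of the single-strand binding protein RPA, gave 0.17 and 0.069.

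For the ends of lagging-strand fragments, the flap nuclease gene Fen1 gave -0.038 and the ligase gene Lig1 gave 0.09 ± 0.11 (SE) on the log2 scale. Lig1 had 183, 184, 181, 195 and 197 CPM with Poly(A:U) and 173, 144, 155, 226 and 169 CPM with PBS. The Poly(A:U) libraries spanned a narrow range that PBS 4 exceeded and the other 4 PBS libraries did not reach. Fen1 showed the same order of libraries around its Poly(A:U) range of 94.6 to 102 CPM, with 145 CPM in PBS 4 and 81.7 to 93.1 CPM in the other PBS libraries.

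The genes that supply deoxynucleotides were split, 2 above and 2 below 0, with a median log2 fold change of 0.012. Tk1, the thymidine kinase of cycling cells, had 54.7, 64.2, 52.7, 51.1 and 55.6 CPM with Poly(A:U) and 44.4, 47.6, 43.8, 61.3 and 53.1 CPM with PBS, a log2 fold change of 0.13 ± 0.12 (SE). PBS 1 to PBS 3 were below every Poly(A:U) library, and PBS 4 and PBS 5 were inside the Poly(A:U) range. Rrm2, the S phase subunit of ribonucleotide reductase, had 289.7, 269.8, 304, 342 and 361 CPM in Poly(A:U) 1 to 5, against 293, 277, 244, 383 and 301 CPM in PBS 1 to 5, and gave 0.033 ± 0.12. Its lowest library was PBS 3, its highest PBS 4, and the rest of the 2 groups were interleaved. Rrm1, the large subunit, gave -0.0097. Tyms, thymidylate synthase, had the lowest log2 fold change of the set, -0.11 ± 0.27 (SE), with 67.7, 74.8, 73.4, 75.5 and 80.7 CPM with Poly(A:U) and 63.9, 62.4, 55.8, 151 and 59.5 CPM with PBS. That value turned on PBS 4, which held at least 1.5 times as much Tyms as any other library, while the other 4 PBS libraries were below all 5 Poly(A:U) libraries.

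All 4 G1/S regulators were positive, with a median log2 fold change of 0.25 that only the licensing genes came near. Ccne1, a cyclin E gene, had 26.5, 33.5, 32.4, 30.6 and 30.2 CPM in Poly(A:U) 1 to 5, against 17.9, 20.9, 22.0, 31.9 and 27.3 CPM in PBS 1 to 5, a log2 fold change of 0.33 ± 0.15 (SE) with an unadjusted p of 0.0514. PBS 1 to PBS 3 were below every Poly(A:U) library, and PBS 4 and PBS 5 lay inside the range of the Poly(A:U) libraries. Ccne2, the other cyclin E gene (chromosome 4 of mm10, 11191351 to 11204779), had 14.6, 17.7, 22.9, 28.6 and 32.4 CPM in Poly(A:U) 1 to 5, against 11.2, 9.97, 11.5, 28.7 and 15.4 CPM in PBS 1 to 5, a log2 fold change of 0.56 ± 0.31 (SE), the largest of the set and the one with the widest error. Both groups varied by more than 2-fold within themselves, with PBS 1 to PBS 3 lowest and Poly(A:U) 5, PBS 4 and Poly(A:U) 4 highest. E2f1, an activator E2F, had 31.3, 29.2, 28.1, 31.3 and 28.7 CPM with Poly(A:U) and 22.2, 20.9, 24.4, 37.2 and 33.0 CPM with PBS, and gave 0.08 ± 0.16 on the log2 scale. Below every Poly(A:U) library were again PBS 1 to PBS 3, and above every one were PBS 4 and PBS 5. E2f2, another activator E2F, had 384, 336, 370.5, 396 and 417 CPM with Poly(A:U) and 309, 277, 251, 388 and 417 CPM with PBS, and gave 0.18 ± 0.13. The lowest were PBS 1 to PBS 3, and PBS 5, PBS 4 and the Poly(A:U) libraries were interleaved.

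Of the genes that keep chromatin and bases in order during S phase, Slbp, Ung and Uhrf1 were all positive, with a median log2 fold change of 0.20. Slbp (chromosome 5 of mm10, 33634952 to 33652574), whose product binds the stem-loop of replication-dependent histone mRNAs, had 155, 167, 168, 182 and 157 CPM in Poly(A:U) 1 to 5, against 139.9, 138, 118, 153 and 149.9 CPM in PBS 1 to 5, a log2 fold change of 0.22 ± 0.09 (SE) with an unadjusted p of 0.0284. Every Poly(A:U) library was above every PBS library, the narrowest gap being 155 CPM in Poly(A:U) 1 to 153 CPM in PBS 4. Slbp was the 1 gene of the 34 with groups that did not overlap on the higher side, against 0.779% of all tested genes, and 0 of the 34 were so on the lower side, against 0.168%. Ung, which removes uracil from DNA, gave 0.20 ± 0.11 with 34.2 ± 2.78 CPM with Poly(A:U) and 29.2 ± 3.88 CPM with PBS (SD, n = 5 each). Uhrf1, which guides the upkeep of DNA methylation behind the fork, had 413, 346, 416, 448 and 449 CPM with Poly(A:U) and 396, 352, 325, 459.6 and 440.0 CPM with PBS, and gave 0.04 ± 0.11. Poly(A:U) 2 was among the lowest libraries of Uhrf1, and the groups overlapped over most of their range.

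The order of the libraries recurred from gene to gene. PBS 4 was the highest of the 10 libraries for 22 of the 34 genes, against 17.0% of all tested genes, and the lowest library was PBS 1, PBS 2 or PBS 3 for 33 of the 34, against 29.6% of all. Pola1 was the exception by a narrow gap, with 58.7 CPM in Poly(A:U) 2 and 59.2 CPM in PBS 3. For 21 of the 34 genes PBS 1, PBS 2 and PBS 3 were all below the lowest Poly(A:U) library, against 10.1% of all tested genes. PBS 5 lay inside the Poly(A:U) range for 20 genes, against 76.8% of all. Only 12 of the 34 genes were not highest in PBS 4, among them Pcna, Rfc3, Slbp, Ung and both cyclin E genes. A first principal component of the 34 genes took 74.2% of their variance over the 10 libraries with the same sign for all 34, and it ran from -1.92 in PBS 2 to 2.21 in PBS 4.

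The libraries of the Poly(A:U) group were also closer to one another in these genes. The SD of log2 CPM within a group had a median over the 34 genes of 0.12 with Poly(A:U) and 0.28 with PBS. Over all tested genes the medians were 0.20 with Poly(A:U) and 0.21 with PBS. The SD was larger in PBS for 33 of the 34 genes, against 54.5% of all tested genes, the exception again being Pola1. The PBS libraries were not spread evenly. In the score of the 34 genes PBS 1 to PBS 3 lay close to one another, at -0.18, -0.29 and -0.28. PBS 5 was at -0.027 and PBS 4 at 0.36, so the SD of PBS includes the distance between PBS 1 to PBS 3 and PBS 4. Whether the treatment changes the spread was not tested.

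**Figure D3:**
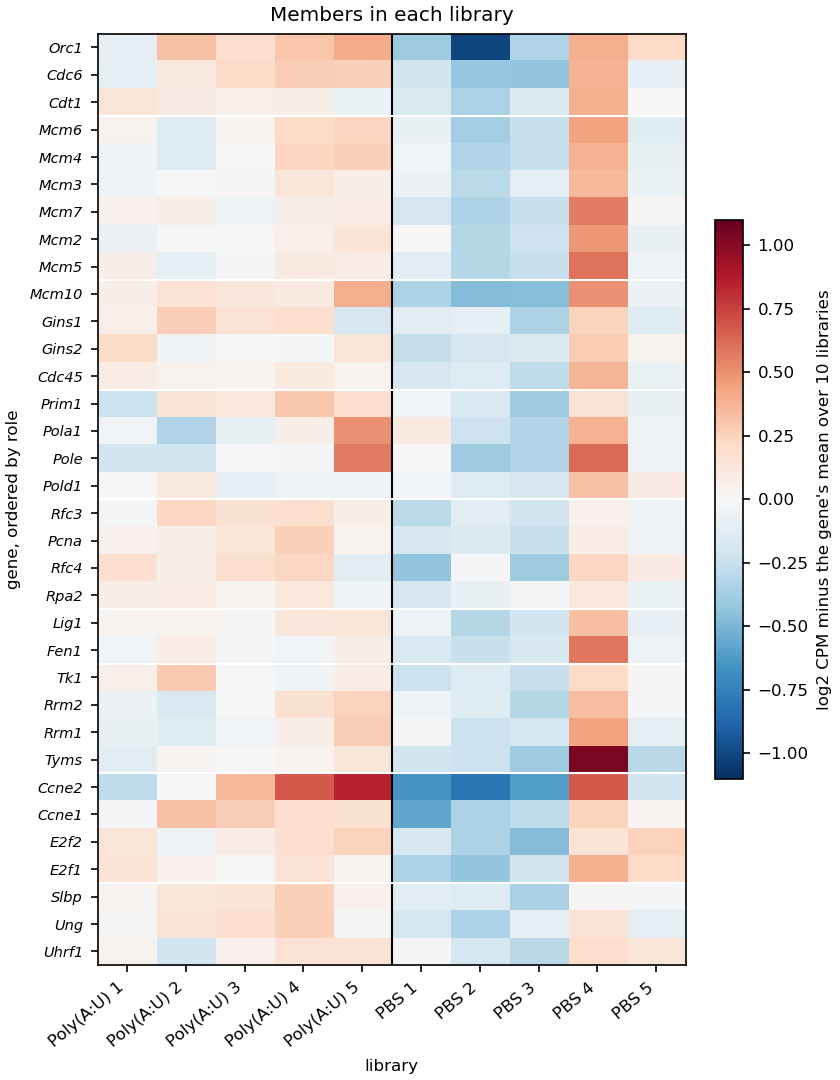
Log2 CPM of each of the 34 genes in each library, less the gene's mean over the 10 libraries, with Poly(A:U) left of the black line, PBS right of it, and white lines between roles. The column of PBS 4 is red for nearly every gene, the columns of PBS 1 to PBS 3 are mostly blue, and Tyms in PBS 4 and Orc1 in PBS 2 are the extremes.

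Within the 2 pairs of libraries that share a name part across the treatments, the genes ran in different directions. Poly(A:U) 5 had a score 0.197 below that of PBS 4, and 27 of the 34 genes were lower in Poly(A:U) 5, from -0.90 on the log2 scale for Tyms to 0.17 for Ccne2, while the median of all tested genes was 0.096. Poly(A:U) 1 had a score 0.028 above that of PBS 5, and 23 of the 34 genes were higher in Poly(A:U) 1, from -0.30 for Orc1 to 0.19 for Gins1, with a median of all tested genes of -0.0041. Without PBS 1 to PBS 3, edgeR's fit gave 8 of 34 genes above 0 (50.6% of all tested genes), a median of -0.135, 0 called genes of the set and 1 at an unadjusted p below 0.05 (5.86% of all). When the name start was fitted as a covariate, the result was 8 of 34 above 0 (52.7% of all), a median of -0.141 and 5 genes at an unadjusted p below 0.05 (7.26% of all). With all shared name parts as terms it gave 2 of 34 above 0 (49.2% of all), a median of -0.12 and 1 gene at an unadjusted p below 0.05 (5.76% of all). The last of these fits rests on the 2 pairs alone, and the other 2 set Poly(A:U) against PBS 4 and PBS 5 alone. The name start of PBS 1 to PBS 3 occurs with PBS only, so for these 3 libraries it and the treatment cannot be told apart. With that covariate the log2 fold change of Cdc6 was -0.046, that of Mcm10 -0.11 and that of Cdt1 -0.19, all below 0 where the fit without it gave values above 0. Ccne1 and Ccne2 came to 0.016 and 0.027, and Pcna, Rfc3 and Slbp to 0.062, 0.090 and 0.092.

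Leaving out PBS 4 went the other way, and all 34 genes were then above 0 (54.2% of all tested genes), with a median of 0.22, and 20 of the 34 had an unadjusted p below 0.05 (14.2% of all), but 0 passed after adjustment. The log2 fold change of Ccne2 was then 0.93, that of Mcm10 0.49, that of Ccne1 0.46 and that of Cdc6 0.42, while Rfc3, Slbp and Pcna gave 0.28, 0.26 and 0.25. Limma's voom with quality weights, which gives less weight to libraries that stand apart, also put all 34 above 0, with a median of 0.20. It called 8 of the 34 at an adjusted p below 0.05, all higher with Poly(A:U), against 6.34% of all tested genes called in either direction and 3.39% called higher. They were Ccne1, Ccne2, Cdc6, Mcm10, Pcna, Slbp, Ung and Rfc3, with adjusted p of 0.0325 to 0.0378 by voom. The voom fit held no term for the name start of PBS 1 to PBS 3, which occurs with PBS only. For these calls the treatment and that set of libraries cannot be told apart, and the same holds for the fit without PBS 4. With that name start as a covariate, edgeR called 0 of the 34 and put 8 above 0. DESeq2's Wald test called 0 of the 34 and 0.0947% of all tested genes.

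**Figure D4:**
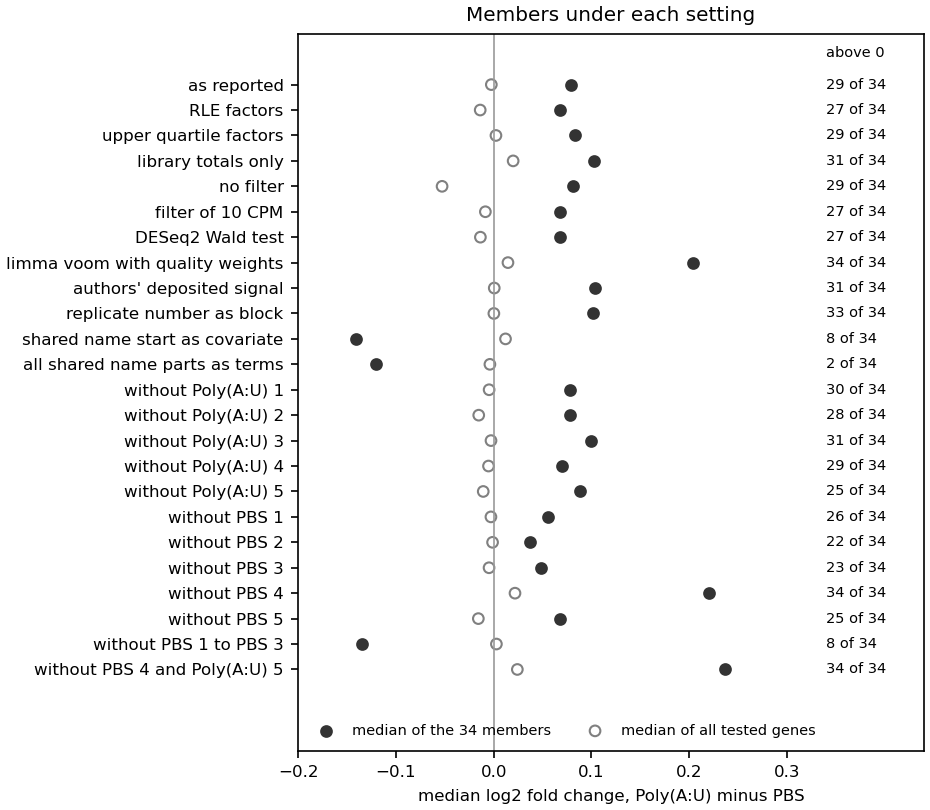
Median log2 fold change, Poly(A:U) minus PBS, of the 34 genes (filled) and of all tested genes (open) under each way of fitting the data, with the number of the 34 above 0 on the right. The median of the 34 genes is 0.079 with all 10 libraries in the fit as reported, 0.22 without PBS 4 and -0.135 without PBS 1 to PBS 3, while the open points stay near 0.

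The G2/M genes, read as a list of 28 transcripts of mitosis that includes Mki67, were a second view of the cycle. None of the 28 was called, as none of all 13729 tested genes was. Of the 28, 19 were positive, against 49.4% of all tested genes, and their median log2 fold change was 0.045. Their score was -0.080, -0.11, -0.025, 0.031 and 0.39 in Poly(A:U) 1 to 5, against -0.057, -0.14, -0.41, 0.39 and 0.0095 in PBS 1 to 5. PBS 4 was high and PBS 3 low in both lists, but Poly(A:U) 5 was as high as PBS 4 for the G2/M genes and well below it for the 34 genes. Of the G2/M genes, 4 of 28 had PBS 1 to PBS 3 all below the lowest Poly(A:U) library, against 10.1% of all tested genes. In the G1/S and replication set 21 of 34 did. Other patterns of that set were also seen in the G2/M genes. The lowest library was among PBS 1 to PBS 3 for 26 of the 28 (29.6% of all tested genes). PBS 4 was the highest for 12 of the 28 (17.0% of all), and the SD was larger in PBS for 23 (54.5% of all). The mean log2 level of the 34 genes less that of the G2/M genes was -0.41, -0.34, -0.40, -0.37 and -0.72 in Poly(A:U) 1 to 5, against -0.61, -0.64, -0.36, -0.52 and -0.52 in PBS 1 to 5. It was higher in 4 Poly(A:U) libraries than in 4 of the PBS libraries, while Poly(A:U) 5 had the lowest value and PBS 3 a value among those of the other Poly(A:U) libraries.

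**Figure D5:**
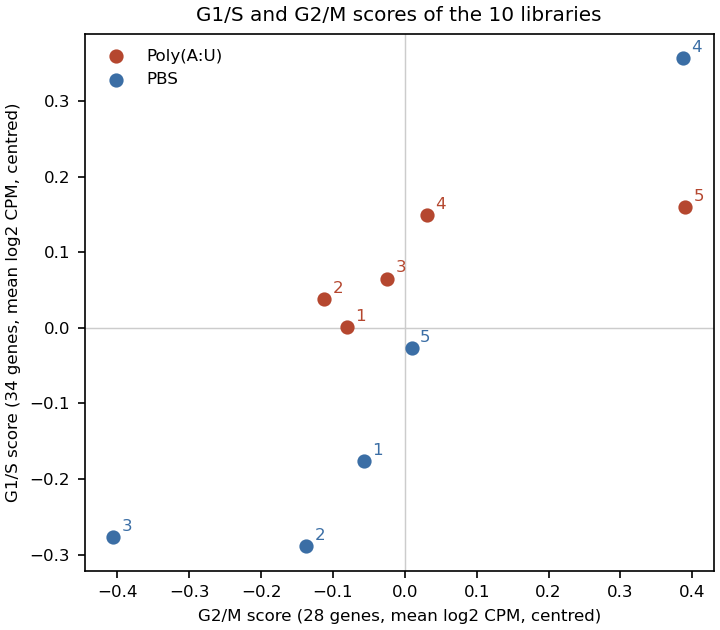
Score of the 34 G1/S and replication genes against the score of 28 G2/M genes (both mean log2 CPM, centred) in each library, numbered by replicate, Poly(A:U) in red and PBS in blue. Poly(A:U) 5 and PBS 4 share a G2/M score of 0.39 but differ on the other axis, at 0.16 for Poly(A:U) 5 and 0.36 for PBS 4.

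The rest of the replication machinery was read from 71 other genes of the same roles and of fork protection and chromatin assembly. None was called, as none of all 13729 tested genes was. Of the 71, 51 were positive, against 49.4% of all tested genes, and their median log2 fold change was 0.065. Their score ran from -0.051 to 0.17 with Poly(A:U) and from -0.15 to 0.13 with PBS. PBS 4 was the highest library for 15 of the 71, near the share of 17.0% of all tested genes. The smallest unadjusted p on the higher side belonged to Orc6, a subunit of the origin recognition complex, Cdc7, the kinase that fires licensed origins, and E2f6, a repressor of the E2F family. Orc6 had 33.1, 38.6, 36.5, 42.6 and 32.8 CPM with Poly(A:U) and 25.8, 25.0, 24.3, 34.8 and 29.1 CPM with PBS, a log2 fold change of 0.37 ± 0.12 (SE). Cdc7 had 24.5, 22.4, 25.9, 29.2 and 28.5 CPM with Poly(A:U) and 20.0, 20.4, 15.1, 19.6 and 24.6 CPM with PBS, a log2 fold change of 0.36 ± 0.12. Both were highest in a Poly(A:U) library, and only PBS 4 for Orc6 and PBS 5 for Cdc7 reached the Poly(A:U) range. E2f6 had 27.7, 25.9, 28.7, 28.8 and 31.2 CPM with Poly(A:U) and 22.0, 23.4, 18.6, 25.1 and 25.4 CPM with PBS, a log2 fold change of 0.28 ± 0.10. Its groups did not overlap, which held on the higher side for 0.779% of all tested genes. On the lower side stood Rbl2, an RB family member of resting cells, at -0.25 ± 0.12, Orc5 at -0.16 ± 0.09 and Mcm9, a helicase of repair, at -0.19 ± 0.11. Rbl2 had 63.1, 42.9, 58.8, 68.0 and 72.3 CPM with Poly(A:U) and 82.7, 69.6, 72.6, 62.2 and 67.5 CPM with PBS. For Orc5 the values were 29.1, 25.3, 27.8, 26.9 and 26.8 CPM with Poly(A:U) and 29.7, 33.6, 30.3, 29.1 and 26.6 CPM with PBS. Mcm9 had 35.1, 30.8, 37.6, 36.8 and 43.6 CPM with Poly(A:U) and 50.2, 43.1, 42.6, 33.0 and 36.6 CPM with PBS. The 2 groups overlapped for each of these 3 genes, and all 6 had an adjusted p of 0.677 to 0.70 by edgeR.

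Markers of other blood cells also varied with the libraries. The 11 erythroid markers found, all above 0 in log2 fold change, summed to 5618, 12355, 4368, 3818 and 1368 CPM in Poly(A:U) 1 to 5, against 140, 436, 313, 2481 and 11936 CPM in PBS 1 to 5, with Hbb-bs the most abundant. PBS 1 to PBS 3, the libraries lowest in the 34 genes, were also the lowest in erythroid markers. The 7 tested neutrophil markers were all below 0 and the 10 of the list, led by S100a9, summed to 31.2 to 274 CPM with Poly(A:U), against 735 to 1097 CPM in the first 3 PBS libraries, while PBS 4 and PBS 5 held 53.4 and 51.7 CPM. The 9 macrophage markers, led by Lyz2, were all below 0 and summed to 40.6 to 61.2 CPM with Poly(A:U) and 42.9 to 194 CPM with PBS, the highest being PBS 4. The 8 T cell markers, led by Lck, of which the 4 tested were below 0, summed to 18.2 to 38.2 CPM with Poly(A:U) and 20.4 to 220 CPM with PBS, again highest in PBS 4. Of the 8, Lck, Cd3e, Trac, Cd4, Cd3g and Thy1 were highest in PBS 4, with 140.0, 53.9, 12.6, 6.64, 3.69 and 2.51 CPM, but Cd3d and Cd8a were not, at 0.148 CPM each in PBS 4 where PBS 1 to PBS 3 had 0.489 to 1.17 CPM of Cd3d and PBS 1 had 0.391 CPM of Cd8a. The 15 B cell precursor markers, 3 of them above 0, summed to 14345 to 17367 CPM with Poly(A:U) and 12457 to 19002 CPM with PBS, lowest in PBS 4. No marker found was at 0 in all 10 libraries. The part of these cells in the values of the 34 genes was not tested.

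Compared per length, as TPM over the 10 libraries, Pcna was the most abundant gene of the set at 504 ± 62.1 TPM (SD, n = 10), above 98.0% of tested genes. Next came the reductase genes Rrm2 and Rrm1 at 208 ± 38.6 and 162 ± 12.6 TPM and Uhrf1 at 162 ± 23.7 TPM. The 6 MCM genes lay between 80.0 ± 15.5 TPM for Mcm4 and 161 ± 12.5 TPM for Mcm3, and the mean ± SD ranges of neighbours among them overlapped. E2f2 stood at 112 ± 24.3 TPM and E2f1 at 14.5 ± 2.29 TPM. Ccne1 and Ccne2, at 19.9 ± 4.03 and 13.9 ± 6.90 TPM, had mean ± SD ranges that overlapped. Orc1 was the lowest, at 4.21 ± 1.24 TPM.

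The fold changes were also read by whether the window held an E2F match, with no test. The 13 with a match, among them Mcm6, Cdc6 and Rfc3, had a median log2 fold change of 0.062 with 11 of 13 above 0, and the 16 with a window but no match, among them Slbp and Pcna, had a median of 0.11 with 13 of 16 above 0. The 5 genes without a window in the table were all above 0, with a median of 0.077.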

How the data were processed

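Bulk RNA-seq of sorted leukemia initiating cells was analysed in 10 libraries, 5 with Poly(A:U) and 5 with PBS, grouped by their labels. Per the file headers, the authors deposited estimated counts and TPM per transcript for each library. Per the submitters' processing notes the tools were DRAGEN and edgeR 3.38.4 with build mm10, and for the annotation and strand setting the sources used here give nothing. A deposited table of the series holds a normalized signal (edgeR-normalized CPM) for 13699 genes. It served as an alternative and correlated at r = 0.997 or more per library with the CPM used here.

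Estimated counts were summed per gene with GENCODE M21 (538 of 142333 transcripts, at most 0.0695% of reads, were unassigned) and rounded to whole numbers. Genes passing filterByExpr (minimum count 10) were tested in edgeR 4.0.16 under R 4.3.3 by its quasi-likelihood test (TMM, robust, treatment only), two-sided, with Benjamini-Hochberg adjustment and a threshold of 0.05. The test was also run on counts simulated from the fit to these data, with known fold changes and no sets of libraries. Standard errors and 95% intervals come from that fit. Scores used log2(CPM + 0.5) and carry no test. DESeq2 1.42.0, limma 3.58.1 (voom with quality weights), other factors and filters, covariates and left-out libraries were alternatives. Reads of near-identical copies such as Pcna-ps2 were shared out by the authors' estimation.

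The members and lists were chosen with earlier results of these data known. Values per library are given for the member with the smallest unadjusted p in each of 9 roles, always for Pcna, Mcm2, Mcm10, Ccne1, Ccne2, E2f1, E2f2, Rrm2, Slbp, Uhrf1, Cdc6 and Cdt1, and for the 3 other replication genes with the smallest p in each direction. Of a marker list the gene with the highest mean is named. Other genes were named after their values were seen. Each library came from a separate pup, per the labels' design text, so errors cover the spread between pups and counting error together. They do not allow for a shift shared by libraries with the same name part.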

Additional observations from a re-analysis of the deposited data

Results flagged for a closer look

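In 104 groups of 5 libraries, 16 held a library whose gap to its nearest neighbour took more than 0.71 of the group's range. The groups were the 5 libraries of each treatment for the CPM of the 34 genes and of the 6 other replication genes named, the scores of the 34 genes, the other replication genes and the G2/M genes, the level of the 34 genes less that of the G2/M genes, and the summed CPM of the 8 gene lists. For a single group of 5 independent values chance gives about 1 in 20. These groups reuse the same libraries and genes that move together, so the 16 cannot be set against that share. Of the 16, 8 concerned PBS 4, 6 Poly(A:U) 5, 1 Poly(A:U) 3 and 1 PBS 5.

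PBS 4 was far above the other PBS libraries for Tyms, at 151 CPM where the next library had 63.9 CPM, for Mcm5 at 404 CPM (next 259 CPM), Rrm1 at 433 CPM (next 316 CPM), Fen1 at 145 CPM (next 93.1 CPM), Cdc45 at 52.3 CPM (next 38.2 CPM) and Ccne2 at 28.7 CPM (next 15.4 CPM). Poly(A:U) 5 was far above the other Poly(A:U) libraries for Pole at 109 CPM, for Mcm10 at 57.3 CPM and for the G2/M score at 0.39. Poly(A:U) 3 was below the rest of its group for Mcm7, at 290.0 CPM where the next library had 312 CPM.

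Of the summed lists, the T cell markers in PBS 4 took 220 CPM (next 24.7 CPM) and in Poly(A:U) 5 took 38.2 CPM (next 23.4 CPM). The B cell precursor markers were lowest of the PBS group in PBS 4, at 12457 CPM (next 17803 CPM), and the erythroid markers highest in PBS 5, at 11936 CPM (next 2481 CPM). Poly(A:U) 5 held 6635 CPM of the G2/M genes (next 4731 CPM), and its level of the 34 genes less that of the G2/M genes was -0.719 (next -0.407).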

How the results depend on the processing

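No gene of the set was called by edgeR under any normalization, filter, covariate or left-out library tried, and the 8 calls by voom with quality weights were the exception among the tests. Over all tested genes DESeq2's Wald test called 13, voom 870, and edgeR 0 to 18 when each library was left out in turn, the 18 without PBS 5. Between 22 (without PBS 2) and 34 (without PBS 4) of the 34 genes were above 0 when a library was left out, with medians of 0.0369 to 0.22. The median was 0.0485 without PBS 3. That of the other replication genes ran from 0.0379 to 0.145, and the score difference from 0.114 to 0.275.

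The direction turned in 3 fits: with the shared name start as a covariate (8 of 34 above 0, median -0.141), with all shared name parts as terms (2 of 34, -0.12) and without PBS 1 to PBS 3 (8 of 34, -0.135). These are not separate checks, since in all 3 the PBS side of the contrast was PBS 4 and PBS 5 alone. PBS 4 had the highest score of the 10 libraries, and in the pair of PBS 5, 23 of the 34 genes were higher in Poly(A:U) 1. The score difference was -0.0824 without PBS 1 to PBS 3 and -0.0847 as the mean within the 2 pairs that share a name part across the treatments. The cause was not tested. Other factors, filters, the authors' signal and DESeq2 gave 27 to 31 of 34 above 0, and leaving out PBS 4 and Poly(A:U) 5 together gave 34 with a median of 0.237.

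Libraries with the same replicate number did not deviate together (r from -0.183 to 0.14 across genes), so the numbers do not pair the samples. With the replicate block, 0 genes of the set were called, 33 of 34 were above 0, the median was 0.102 and the score difference 0.165.

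The median half-width of the intervals, 1.22-fold, came from 5 pups a group in the fit with treatment as its only term. The fewest reads of a gene of the set in a library were 72, for Orc1 in PBS 2.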

Other observations

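Ratios of TPM between members within a library take out the level of the set only where both genes follow it equally. Mcm10 over Mcm2 was 0.231, 0.275, 0.244, 0.224 and 0.218 in Poly(A:U) 1 to 5, against 0.165, 0.206, 0.184, 0.218 and 0.225 in PBS 1 to 5, with means of 0.238 ± 0.023 with Poly(A:U) and 0.20 ± 0.025 with PBS (SD, n = 5 each). Cdc6 over Mcm2 was 0.164, 0.185, 0.182, 0.201 and 0.185 in Poly(A:U) 1 to 5, against 0.142, 0.148, 0.144, 0.161 and 0.174 in PBS 1 to 5. PBS 1 to PBS 3 had the lowest ratios of Cdc6 to Mcm2, and Poly(A:U) 1 lay below PBS 5. PBS 1 to PBS 3 also had the lowest scores of the set, so this ratio may still hold part of that level. The ratio of Ccne1 to Ccne2 averaged 1.45 ± 0.47 with Poly(A:U) and 1.81 ± 0.48 with PBS, and that of E2f2 to E2f1 averaged 8.1 ± 1.2 with Poly(A:U) and 7.42 ± 0.96 with PBS, with overlapping groups in both. These ratios were chosen after values had been seen and carry no test.

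A processed copy of Tyms, Tyms-ps, reached 10.7 CPM in PBS 4, no other library having more than 1.14 CPM, the same library in which Tyms and Pcna-ps2 were high.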
